A study of Mus musculus with 3 samples.

Results

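The chromosome 11 receptors are 74 named transcription start positions of mouse odorant receptor genes, taken from the authors' table of 1085 positions. Every row on chromosome 11 was kept whose name stands in 1 row only and is not that of an unannotated pseudogene. Of the 85 rows on chromosome 11, this left out 8 rows that share 4 names (Olfr325, Olfr75-ps1, Olfr406 and Olfr59) and 3 rows of unannotated pseudogenes. All 74 positions fell in 4 clusters on the mm9 build, with 23 positions between 48 and 53 Mb, 21 between 58 and 60 Mb, 27 between 73 and 75 Mb and 3 between 87 and 88 Mb.

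Odorant receptors are G protein-coupled receptors of olfactory sensory neurons, and each neuron expresses very few genes of the family, usually from 1 allele. The genes lie in tandem arrays. A typical gene has short noncoding exons at its 5′ end, an intron, and a single exon that holds the whole coding sequence, so its promoter can lie several kilobases before the start codon. Known promoters of the family often hold short AT-rich sites bound by homeodomain proteins such as Lhx2 and sites bound by the Ebf (Olf-1) proteins.

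Each sample pooled 5 adult mice of the strain C57/Bl6 at an age of 6 to 8 weeks, whose olfactory epithelia were taken. The labels give no treatment and no genotype beyond the strain. Capped 5′ ends were captured by RLM-RACE, in which an RNA adapter is joined to mRNA after the cap is removed. Reverse transcription started from degenerate primers placed in receptor coding sequence, which limits the readout to transcripts that these primers fit. The Stringent group had 1 array, hybridised with a product of nested PCR, and the High Coverage group had 2 arrays, hybridised with products of PCR without nesting. The headers of the processed files name the High Coverage 1 sample female and the High Coverage 2 sample male, so sex and array cannot be told apart there. With 1 array against 2, no test with arrays as units was run, precision is limited by how few arrays there are, and intervals over promoters (exact Clopper-Pearson, 95%) cover counting error only. Promoters of 1 array are not replicates.

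The value read at each position was the MAT score. MAT predicts how bright a probe would be from its bases alone and pools what remains over neighbouring probes. The scale is a natural log per the file headers. The highest score within 100 bp on either side was taken for each position, as a score and as a percentile of all 2188086 scored probes of the same array. Scores of different arrays share no common scale, so arrays are compared by percentile, and scores are given as the authors' values. A score near 0 has a higher percentile on Stringent. There -0.000959 at Olfr318 ranked at 82.9, while -0.0388 at Olfr1387 ranked at 68.1 on High Coverage 1. On High Coverage 2, -0.0255 at Olfr30 ranked at 68.0. How far percentile differences between the arrays rest on this was not tested. A median of 38 probes (9 to 43) lay in each window. The authors' called regions were counted where they reached into the window. The labels and headers do not say how the positions were picked. If they drew on these arrays, regions at the positions are not independent of that choice. Marker genes of the epithelium other than receptors were not used here.

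Sequence before the RefSeq start is shown for 6 genes of the 73 to 75 Mb cluster. These are the members there whose RefSeq gene is over 2 kb long, so that its 5′ end lies well before the coding exon. The choice of these genes was made after their sequences were seen. The sequences come from RefSeq (GRCm38.p6), while the authors' positions are mm9, and where a position falls in its RefSeq window was not determined. The printed bases may therefore lie before or after the position that was read on the arrays. Each stretch of 100 bases is printed on the strand of the gene. The last run of capitals is TCCT and GGGA with any 2 bases between them, a motif chosen after these sequences were seen. Earlier capitals are TAATTA and TAATGA, cores of homeodomain sites.
Olfr20, chr11:73350721-73350820, plus strand: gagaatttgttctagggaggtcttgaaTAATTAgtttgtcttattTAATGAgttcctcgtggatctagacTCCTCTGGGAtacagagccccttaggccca
Olfr1, chr11:73399531-73399630, minus strand: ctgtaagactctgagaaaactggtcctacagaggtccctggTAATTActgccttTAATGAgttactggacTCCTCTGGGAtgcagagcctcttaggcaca
Olfr378, chr11:73428498-73428597, minus strand: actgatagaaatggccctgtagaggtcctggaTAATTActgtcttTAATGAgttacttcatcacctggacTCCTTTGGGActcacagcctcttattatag
Olfr389, chr11:73780637-73780736, minus strand: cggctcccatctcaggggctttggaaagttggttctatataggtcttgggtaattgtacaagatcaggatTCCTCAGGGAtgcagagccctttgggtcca
Olfr391, chr11:73803094-73803193, minus strand: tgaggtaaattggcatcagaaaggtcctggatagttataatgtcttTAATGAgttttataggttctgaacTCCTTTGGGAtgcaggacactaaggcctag
Olfr392, chr11:73816964-73817063, minus strand: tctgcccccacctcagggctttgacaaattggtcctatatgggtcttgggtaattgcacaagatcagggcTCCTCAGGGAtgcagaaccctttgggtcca

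The 6 stretches are aligned on the motif. Olfr389 and Olfr392 had 80 of 100 bases in common without gaps, and the other pairs had 37 to 55. The motif began at positions -139 to -50 relative to the RefSeq start. RefSeq gives a window of 250 bases before to 50 after the start for 64 of the 74 members. The windows of the 6 printed genes were the 6 of 64 that held the motif on either strand, against 1.63% of all 32851 windows. Motif and genes were both chosen after these sequences were seen. Its presence in all 6 was fixed by that choice, and no enrichment is read from the shares of this motif. TAATGA stood in all 6 windows (also in those of Olfr389 and Olfr392, outside the printed bases), in 24 of the 64 and in 9.78% of all. TAATTA stood in 3 of the 6, in 14 of the 64 and in 5.29% of all, and TATAAA in 1 of the 6, in 18 of the 64 and in 13.6% of all. All motifs were searched on both strands. The textbook Ebf palindrome, TCCC and GGGA with any 2 bases between them, stood in none of the 64 windows and in 0.904% of all, and its shorter core CCCNNGGG in 1 of the 64 and in 13.7% of all. The median GC content was 40.7% over the 64 windows and 52.7% over all windows, a difference that moves with the AT-rich motifs and whose part in these shares was not tested. Nearly all other member windows start at a gene of at most 2 kb, and only Olfr332 and Olfr330 in the 58 to 60 Mb cluster also had longer genes. The start of so short a gene can lie near the coding exon. The motif shares over the 64 windows thus describe sequence at RefSeq starts and do not show which sites the promoters hold or lack.

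The first question was how many chromosome 11 promoters carried RACE signal on each array. A called region reached within 100 bp of 46 of 74 positions on Stringent (62.2%, 50.1 to 73.2), where 62% of all scored positions of the table had one. High Coverage 1 had a region at 23 positions (31.1%, 20.8 to 42.9), against 36.6% of all scored positions. High Coverage 2 had one at 27 (36.5%, 25.6 to 48.5), against 43.8%. The Stringent share was close to the background of the table, and both High Coverage shares were below it, with intervals that overlapped those of the other 1005 positions (37.0%, 34.0 to 40.1, and 44.4%, 41.3 to 47.5). The median percentile over chromosome 11 was 94.4 on Stringent, against 87.5 and 87.2 on High Coverage 1 and 2. Over the rest of the table the medians were 94.3 on Stringent, against 91.5 and 92.6 on High Coverage 1 and 2.

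**Figure D1:**
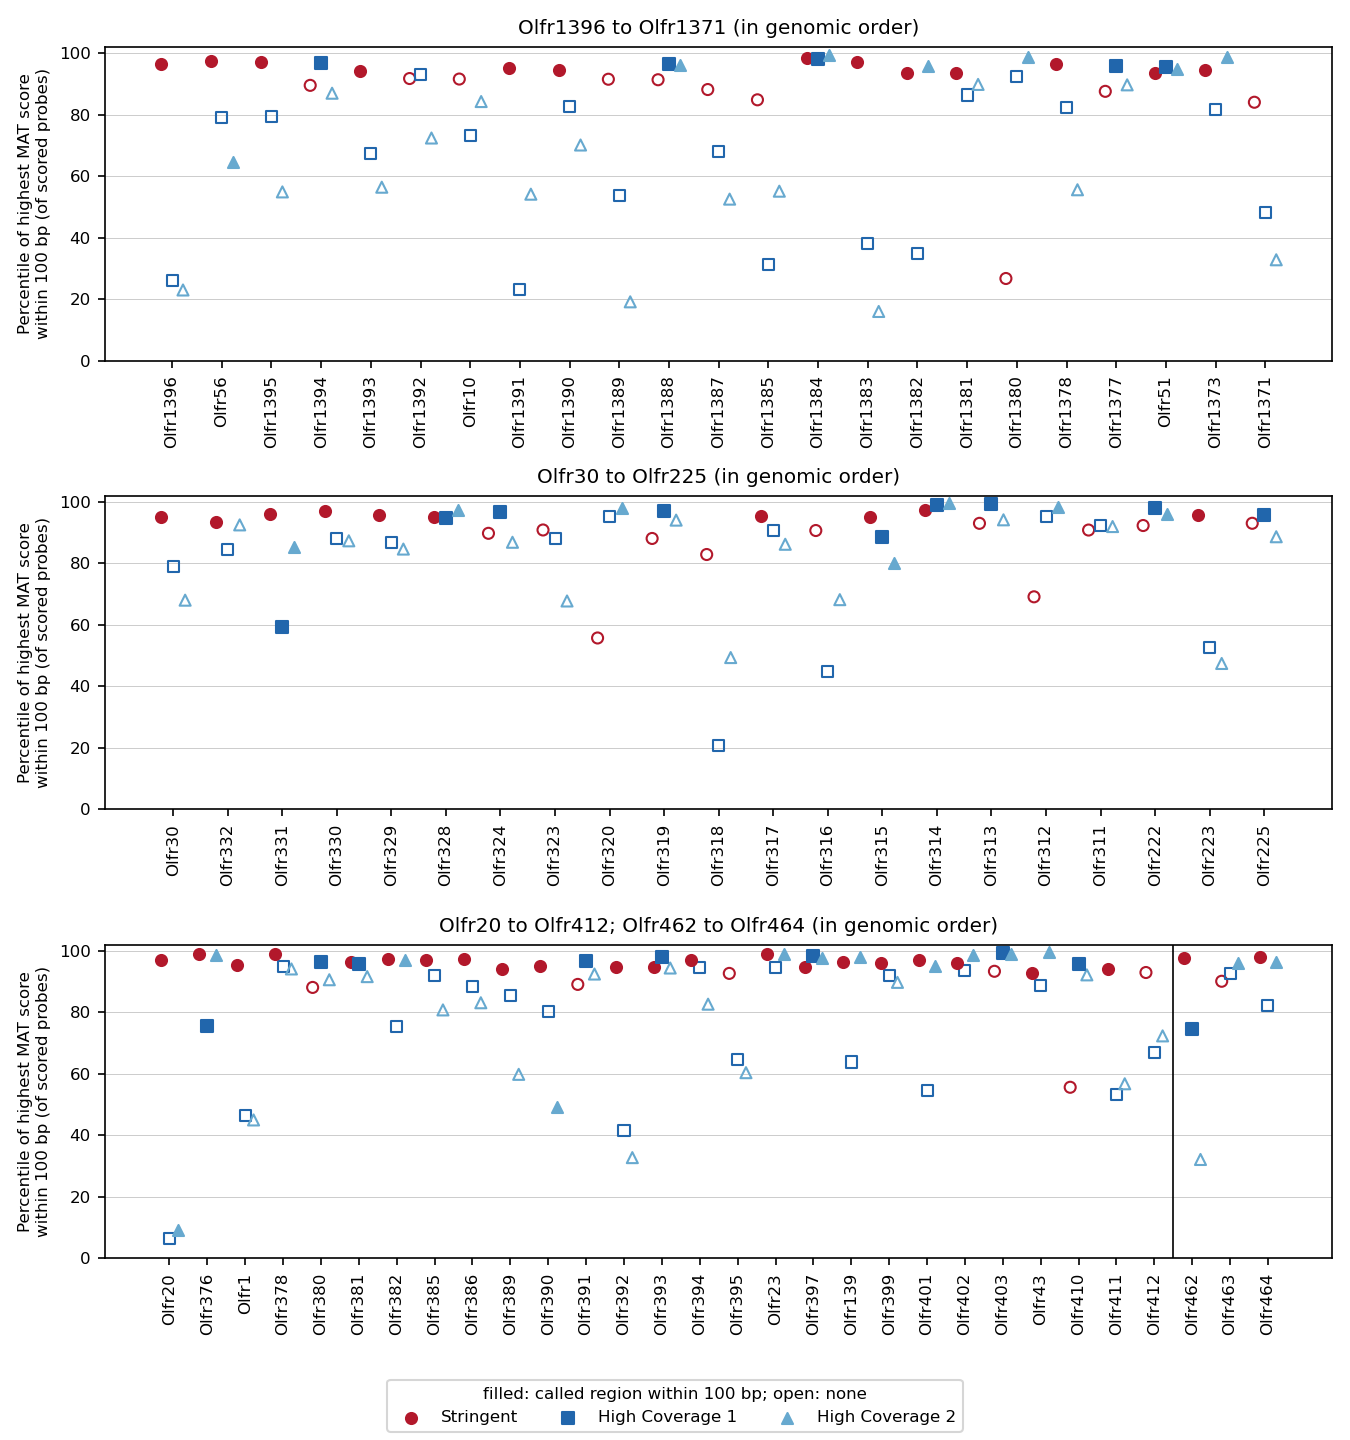
Percentile of the highest MAT score within 100 bp of each of the 74 positions (y axis, percent of scored probes of the same array) in genomic order (x axis), with the 87 to 88 Mb cluster right of the line in the last panel. Circles stand for Stringent, squares for High Coverage 1 and triangles for High Coverage 2, filled where a called region reached within 100 bp; most circles lie above 80, while squares and triangles spread down to 6.48 at Olfr20.

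Few positions were called on every array. A region stood on all 3 arrays at 8 positions (10.8%, 4.78 to 20.2), against 17.4% of all scored positions, and on no array at 12 (16.2%, 8.67 to 26.6), against 18.4%. The count on all 3 arrays was 17 with a window of 250 bp on each side, and 3 where the region had to span the position. Shares over all scored positions were not computed at these 2 settings. Another 36 positions were called on 1 array (48.6%, against 38.3% of all scored positions) and 18 on 2 arrays (24.3%, against 25.95%). The commonest pattern was a region on Stringent alone, at 23 positions (31.1%, against 28.5% of all scored positions). Stringent with High Coverage 2 followed at 12 (16.2%, against 12.5%) and High Coverage 1 alone at 9 (12.2%, 5.71 to 21.8, against 5.75%). High Coverage 2 alone accounted for 4 positions (5.41%, against 4.08%) and Stringent with High Coverage 1 for 3 (4.05%, against 3.61%). Both High Coverage arrays without Stringent accounted for 3 (4.05%, 0.844 to 11.4, against 9.82%). Across the 74 positions the scores of the High Coverage arrays had a Pearson r of 0.518, while Stringent had an r of -0.0906 with High Coverage 1 and 0.165 with High Coverage 2. Over the rest of the table the values were 0.677, 0.0472 and 0.218 in the same order, so this pattern was not particular to chromosome 11. These are descriptions over positions that share an array, a probe design and sequence within families.

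**Figure D2:**
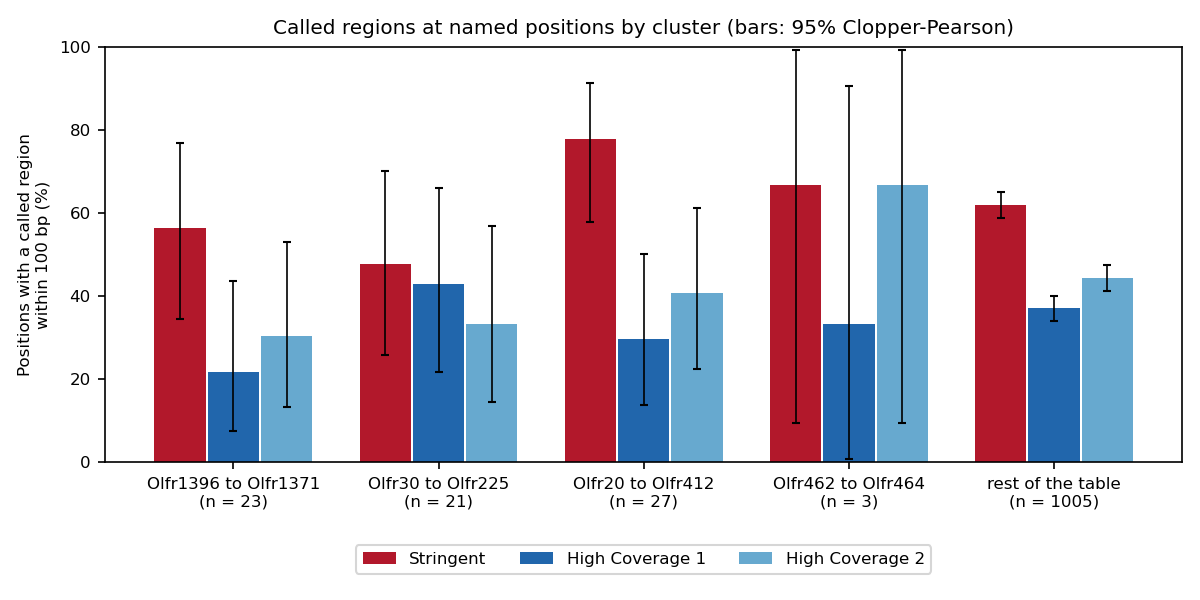
Share of positions with a called region within 100 bp (y axis, percent, with exact 95% binomial intervals over positions) for each cluster, named by its first and last position, and for the rest of the table, by array. Bars of Stringent stand between 47.6% and 77.8% in the 3 large clusters, and the intervals overlap.

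Stringent called a larger share of the 73 to 75 Mb cluster than of the other large clusters, with intervals that overlapped. In the 73 to 75 Mb cluster Stringent called 21 of 27 positions (77.8%, 57.7 to 91.4), in the 48 to 53 Mb cluster 13 of 23 (56.5%, 34.5 to 76.8) and in the 58 to 60 Mb cluster 10 of 21 (47.6%, 25.7 to 70.2). High Coverage 1 called 8 of 27, 5 of 23 and 9 of 21 in the same order of clusters, and High Coverage 2 called 11, 7 and 7. The ranking of the clusters on Stringent was not that on either High Coverage array. In the 87 to 88 Mb cluster Stringent called 2 of 3 positions, High Coverage 1 called 1 and High Coverage 2 called 2.

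The 73 to 75 Mb cluster ran over 1011 kb from Olfr20 at 73164187 to Olfr412 at 74175306, with 10 positions on the plus strand and 17 on the minus strand and a median spacing of 28594 bp. It held all 17 members of the receptor family MOR135 and all 6 of MOR255, by the family names that RefSeq lists as synonyms. Stringent called 14 of the 17 MOR135 positions (82.4%, 56.6 to 96.2) and 5 of the 6 MOR255 positions (83.3%, 35.9 to 99.6). Both intervals held the 62% of all scored positions. High Coverage 1 called 6 and 1, against 36.6% of all scored positions, and High Coverage 2 called 6 and 3, against 43.8%. The longest rows of neighbours with a Stringent region were 6 positions each, from Olfr381 to Olfr390 and from Olfr23 to Olfr402, and no 2 neighbours in this cluster both lacked one. The latter rests on Olfr43, where only the edge of a Stringent region entered the window. Olfr43 stands between Olfr403 and Olfr410, which had no Stringent region.

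Within MOR135, Olfr378 scored 16.2 on Stringent, against 2.31 and 2.62 on High Coverage 1 and 2, and Olfr376 scored 16.1 on Stringent, against 0.229 and 10.1 on High Coverage 1 and 2. Olfr23 scored 15.8 on Stringent, against 2.18 and 11.7 on High Coverage 1 and 2. These were the highest Stringent scores of the 74 positions, and within 100 bp High Coverage 1 put none of them over its threshold of 2.53. Olfr376 was still called on High Coverage 1, by a region (4.48) that began 52 bp after the position, and thus on all 3 arrays. Olfr397 scored 4.95 on Stringent, against 6.18 and 6.43 on High Coverage 1 and 2, with regions of 200 bp on Stringent and of 215 and 221 bp on High Coverage 1 and 2, whose first bases lay at -76, -91 and -97 bp from the position. Its percentiles, between 94.8 and 98.4, made it the member of the cluster with the highest lowest percentile. Olfr393 scored 4.67 on Stringent, against 4.76 and 2.75 on High Coverage 1 and 2, the last of which was below the threshold of 2.99. Olfr402, of MOR255, scored 8.19 on Stringent, against 1.86 and 9.74 on High Coverage 1 and 2.

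The 6 MOR135 genes with printed sequences were not alike on the arrays. Olfr20, the first position of the cluster, scored 10.7 on Stringent, against -1.59 and -1.61 on High Coverage 1 and 2. A High Coverage 2 region began 99 bp after this position, so the window was called there too. Its percentiles of 96.8 on Stringent and 6.48 and 9.33 on High Coverage 1 and 2 gave the widest gap between Stringent and High Coverage on the chromosome. That gap depends on the window. At 205 bp after the position Olfr20 scored 16.8 on Stringent, against 5.10 and 9.35 on High Coverage 1 and 2, over the threshold of each array. Olfr1 scored 6.28 on Stringent, against -0.559 and -0.644 on High Coverage 1 and 2. Olfr392 scored 4.61 on Stringent, against -0.657 and -0.917 on High Coverage 1 and 2. Both stood below 0 on both High Coverage arrays. Olfr389, whose stretch is so similar to that of Olfr392, scored 3.64 on Stringent, against 0.784 and -0.283 on High Coverage 1 and 2. Olfr391 went the other way, with 0.55 on Stringent, against 3.26 and 2.06 on High Coverage 1 and 2. Thus 5 of the 6 were called on Stringent, where 62% of all scored positions were, and Olfr391 was called on High Coverage 1 only. How far near-identical genes share probe signal was not tested.

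Toward the far end of the cluster the order of the arrays varied from gene to gene. Olfr403, of MOR125, scored 2.47 on Stringent, against 10.1 and 11.2 on High Coverage 1 and 2, with 9 probes in its window. Olfr43, of the same family, scored 2.00 on Stringent, against 1.09 and 14.2 on High Coverage 1 and 2, and its Stringent region began 95 bp after the position. Olfr410, of MOR255, scored -0.647 on Stringent, against 2.60 and 1.99 on High Coverage 1 and 2. The neighbouring Olfr411 scored 3.82 on Stringent, against -0.42 and -0.365 on High Coverage 1 and 2, the opposite order within 1 family. High Coverage 1 minus High Coverage 2 was -40.4 percentile points at Olfr401 and -34.0 at Olfr139, both of this family and both called on Stringent and High Coverage 2. Olfr395 (1.81 on Stringent, against -0.137 and -0.268 on High Coverage 1 and 2) and Olfr412, the last position (2.06, -0.0766 and 0.138 on the same arrays), had no called region within 100 bp. Of the other members, Olfr381 (9.23 on Stringent, against 2.57 and 1.85 on High Coverage 1 and 2) was called on Stringent and High Coverage 1, and Olfr382 (11.9, against 0.218 and 5.11) on Stringent and High Coverage 2. Olfr394 and Olfr399 were called on Stringent alone, with 11.6 and 8.53, and Olfr380 on High Coverage 1 alone, with 3.04.

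**Figure D3:**
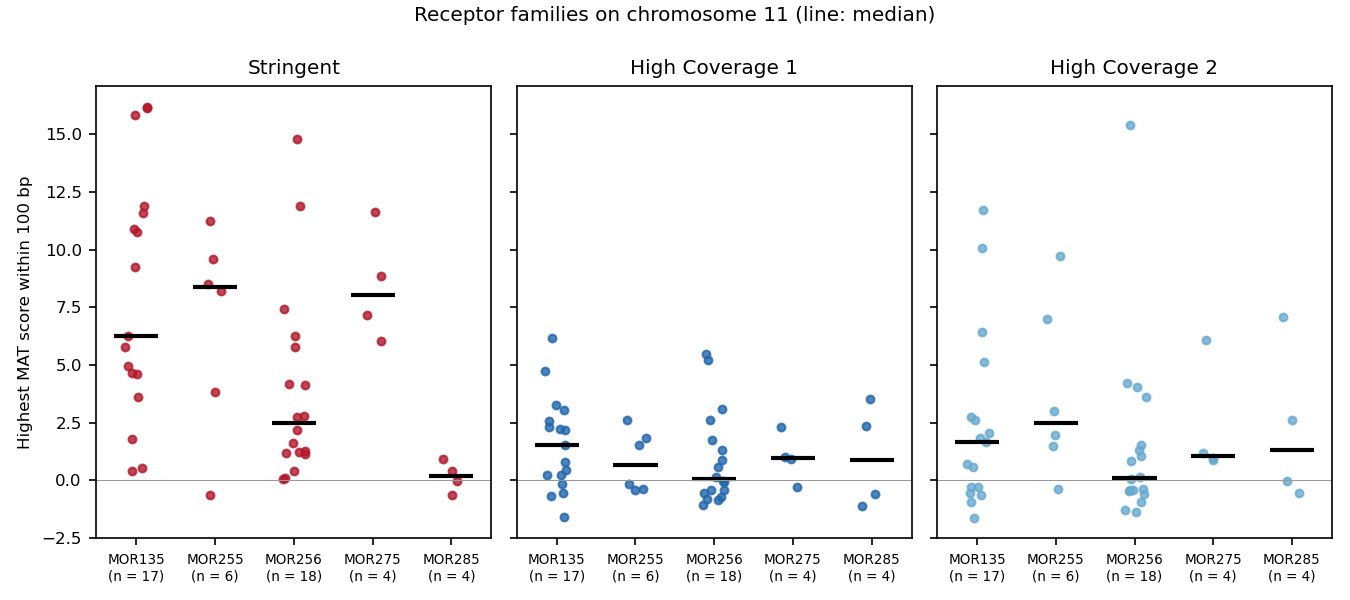
Highest MAT score within 100 bp (y axis, natural log scale) of each member (points) of the 5 receptor families with 4 or more members on chromosome 11 (x axis), with the family's median as a line and 1 panel per array. On Stringent the medians are 6.28 for MOR135, 8.36 for MOR255, 2.49 for MOR256, 8.03 for MOR275 and 0.208 for MOR285, and all 5 are below 3 in both High Coverage panels.

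The 48 to 53 Mb cluster held a long run of genes on 1 strand. It ran over 3097 kb from Olfr1396 at 48931529 to Olfr1371 at 52028194, in stretches of 18, 3 and 2 positions. Of its 23 positions 20 lay on the plus strand, as 1 unbroken row of 20 neighbours, and the median spacing was 14442 bp. MOR256 supplied 14 of the 23, and 4 more MOR256 members lay in the 58 to 60 Mb cluster. Stringent called 7 of the 14, against 62% of all scored positions. High Coverage 1 called 2, against 36.6%, and High Coverage 2 called 3, against 43.8%. At 6 of the 14 no array had a region within 100 bp (42.9%, 17.7 to 71.1), against 18.4% of all scored positions. The median percentile of the 14 was 92.6 on Stringent, against 67.8 and 63.3 on High Coverage 1 and 2. For MOR135 the medians were 95.3, 91.9 and 90.6 on the same arrays.

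Olfr1384, of MOR256, was the one member of its family called on all 3 arrays. It scored 14.8 on Stringent, against 5.20 and 15.4 on High Coverage 1 and 2, the highest lowest percentile of the cluster, with regions of 487, 227 and 467 bp. Its neighbour Olfr1383 scored 11.9 on Stringent, against -0.727 and -1.37 on High Coverage 1 and 2. The neighbour on the other side, Olfr1385, scored 0.114 on Stringent, against -0.866 and -0.406 on High Coverage 1 and 2. Of 3 adjacent MOR256 genes, then, 1 was called within 100 bp on every array, 1 on Stringent only and 1 on none. The last contrast depends on the window. At Olfr1385 a Stringent region (4.35) began 128 bp after the position and a High Coverage 1 region (3.87) began 287 bp after it. Olfr1382 scored 2.77 on Stringent, against -0.793 and 3.60 on High Coverage 1 and 2. Its gap of -60.9 percentile points between High Coverage 1 and High Coverage 2 was the widest between those arrays on the chromosome. Olfr1388 scored 1.13 on Stringent, against 3.10 and 4.22 on High Coverage 1 and 2, and was called on both High Coverage arrays and not on Stringent.

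The MOR256 positions without a called region within 100 bp in this cluster were Olfr1392, Olfr10, Olfr1389, Olfr1387, Olfr1385 and Olfr1371. Their Stringent scores lay between 0.0634 at Olfr1371, the last position of the cluster, and 1.29 at Olfr1392. On High Coverage 1 they lay between -0.866 and 1.75, and on High Coverage 2 between -1.27 and 0.852. Olfr1391, of the same family, scored 5.77 on Stringent, against -1.05 and -0.431 on High Coverage 1 and 2. Olfr1393, Olfr1390 and Olfr1381 were, like Olfr1391, called on Stringent alone, with Stringent scores between 2.79 and 4.16. At Olfr1381 a High Coverage 2 region (7.77) began 142 bp after the position, beyond the window.

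Outside MOR256, the cluster held strong Stringent signal at its first 3 positions. Olfr1396 scored 9.14 on Stringent, against -0.981 and -1.16 on High Coverage 1 and 2. Olfr56, of the same family MOR276, scored 12.3 on Stringent, against 0.386 and -0.137 on High Coverage 1 and 2. Olfr1395 scored 12.0 on Stringent, against 0.397 and -0.412 on High Coverage 1 and 2, and its Stringent region of 821 bp was the longest at any of the 74 positions. All 3 positions were called on Stringent, and High Coverage 1 called none of them within 100 bp. High Coverage 2 called only Olfr56, by a region (7.31) that began 78 bp after the position. Olfr1380 showed the reverse, with -1.12 on Stringent, against 1.63 and 9.87 on High Coverage 1 and 2, and was called on High Coverage 2 only. In the MOR129 stretch, Olfr1378 scored 9.65 on Stringent, against 0.573 and -0.395 on High Coverage 1 and 2, while Olfr1377 scored 0.354 on Stringent, against 2.65 and 1.50 on High Coverage 1 and 2. The third member, Olfr51, scored 2.93 on Stringent, against 2.61 and 2.99 on High Coverage 1 and 2 and was called on every array. Olfr1394, the only MOR280 member, scored 0.637 on Stringent, against 3.40 and 1.12 on High Coverage 1 and 2. Olfr1373, on the minus strand near the end of the cluster, was called on Stringent and High Coverage 2, with 4.34 on Stringent, against 0.52 and 9.45 on High Coverage 1 and 2.

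The 58 to 60 Mb cluster mixed families and strands. It ran over 1146 kb from Olfr30 at 58275859 to Olfr225 at 59421923, with 10 positions on the plus and 11 on the minus strand, in stretches of 18 and 3 positions. It held 4 of the 8 positions called on every array, which were 19.0% of its 21 positions, near the 17.4% of all scored positions. Its first 6 positions, Olfr30 to Olfr328, were all called on Stringent, and the next 5, Olfr324 to Olfr318, were not. The first row of 6 held the 4 members of MOR275, all called on Stringent. The 4 members of MOR285 and the 3 of MOR222 had no Stringent region, where 62% of all scored positions had one.

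Olfr328 of MOR275 scored 6.03 on Stringent, against 2.30 and 6.07 on High Coverage 1 and 2. Olfr331 of the same family scored 8.87 on Stringent, against -0.277 and 0.965 on High Coverage 1 and 2. Although it was called on all 3 arrays, its High Coverage regions (538 bp and 558 bp) both began at -602 bp from the position and only their ends reached into the window. Olfr314, of MOR278, scored 12.2 on Stringent, against 9.52 and 16.6 on High Coverage 1 and 2, with percentiles of 97.3, 99.1 and 99.7. It had the highest lowest percentile of the cluster and the highest High Coverage 2 score of the 74 positions. Its neighbour Olfr315, of the same family, scored 6.03 on Stringent, against 1.08 and 0.539 on High Coverage 1 and 2, and its High Coverage regions began 44 and 48 bp after the position. Olfr30, the first position, scored 5.54 on Stringent, against 0.383 and -0.0255 on High Coverage 1 and 2. Olfr332, Olfr330, Olfr329 and Olfr317 were, like Olfr30, called on Stringent alone, with Stringent scores between 2.84 and 11.6, and Olfr324 on High Coverage 1 alone, with 3.30.

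At several positions of MOR222 and MOR285 the percentile was higher on both High Coverage arrays than on Stringent. Olfr313 of MOR222 scored 2.19 on Stringent, against 11.3 and 2.67 on High Coverage 1 and 2, the highest High Coverage 1 score of the 74 positions. Its neighbour Olfr312 scored -0.417 on Stringent, against 2.48 and 8.65 on High Coverage 1 and 2. So 1 gene of the pair was called on High Coverage 1 and the other on High Coverage 2. Olfr311, the third member, scored 0.959 on Stringent, against 1.63 and 1.95 on High Coverage 1 and 2 and was called on none. In MOR285, Olfr320 scored -0.644 on Stringent, against 2.37 and 7.09 on High Coverage 1 and 2, and Olfr319 scored 0.417 on Stringent, against 3.52 and 2.63 on High Coverage 1 and 2. Olfr318 (-0.000959 on Stringent, against -1.11 and -0.544 on High Coverage 1 and 2) and Olfr316 (0.912, -0.589 and -0.0195 on the same arrays) had no region. Olfr323, the only MOR107 member, also had none, with 0.965 on Stringent, against 1.02 and -0.0346 on High Coverage 1 and 2.

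The last stretch of the cluster held 3 MOR256 genes. Olfr222 scored 1.61 on Stringent, against 5.46 and 4.06 on High Coverage 1 and 2. Olfr223 had the reverse order, with 7.44 on Stringent, against -0.429 and -0.588 on High Coverage 1 and 2. Olfr225, the last position, scored 2.21 on Stringent, against 2.61 and 1.34 on High Coverage 1 and 2 and was called on High Coverage 1 only.

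The 87 to 88 Mb cluster consisted of the 3 members of MOR240, all on the minus strand within 28.7 kb. Olfr462 scored 13.1 on Stringent, against 0.179 and -0.931 on High Coverage 1 and 2, and its gap of 42.3 percentile points between High Coverage 1 and High Coverage 2 was the widest in that direction on the chromosome. Olfr463 lay 4950 bp away and scored 0.747 on Stringent, against 1.66 and 3.76 on High Coverage 1 and 2. Olfr464 scored 13.9 on Stringent, against 0.552 and 4.35 on High Coverage 1 and 2. Stringent was thus high at the first and last gene and low at the one between them.

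A further question was where the 2 amplification schemes differed. Stringent minus the mean of the High Coverage percentiles had a median of 9.62 points on chromosome 11 and 3.71 over the rest of the table. The limit for a single position was set at 34.3 points, the 95th percentile of the absolute gap between the High Coverage arrays over all scored positions. Stringent was higher beyond this limit at 13 of 74 positions (17.6%, 9.70 to 28.2), against 8.8% of all scored positions, and lower at 3 (4.05%, 0.844 to 11.4), against 1.2%. On a scale of array median and median absolute deviation the counts were 31 and 0, against 40.7% and 1.95% of all scored positions. With the mean score in the window they were 27 and 5, against 23.5% and 2.04%. On each of these scales the limit was taken anew as the 95th percentile of the absolute High Coverage gap. Between the High Coverage arrays, High Coverage 1 was higher beyond the limit at 2 positions, against 1.67% of all, and lower at 2, against 3.34%. The median absolute gap between those arrays was 6.63 points on chromosome 11, 14.3 in the 48 to 53 Mb cluster and 4.04 over the rest of the table.

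Of the 13 positions higher on Stringent, 6 lay in the 48 to 53 Mb cluster, 2 in the 58 to 60 Mb cluster, 4 in the 73 to 75 Mb cluster and 1 in the 87 to 88 Mb cluster. The differences were 88.9 points at Olfr20, 71.8 at Olfr1396, 70.2 at Olfr1383, 57.4 at Olfr392, 56.5 at Olfr1391, 55.1 at Olfr1389, 49.6 at Olfr1, 47.9 at Olfr318, 45.7 at Olfr223 and 44.4 at Olfr462. The other 3 were Olfr1371, Olfr1385 and Olfr411. Olfr1389, Olfr1385, Olfr1371 and Olfr318 were among them with no called region within 100 bp on any array. Their Stringent percentiles lay between 82.9 and 91.5 and their High Coverage percentiles between 19.1 and 55.1. The 3 positions lower on Stringent were Olfr1380 at -68.8 points, Olfr320 at -40.7 and Olfr410 at -38.3. Next in that direction stood Olfr312 at -27.7 points, which did not reach the limit, and Olfr319, Olfr403, Olfr391, Olfr380, Olfr1377 and Olfr1388 followed between -7.42 and -5.03. Olfr411 (39.3), Olfr320 and Olfr410 passed the limit by the least, and Olfr316 (34.1), Olfr1393 (32.4) and Olfr390 (30.3) fell just short of it.

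The mean MAT score after the position was compared with that before it, over 150 bp on each side, since RACE products run from a transcript's start into the gene. It was higher after the position at 66 of 70 positions on Stringent (94.3%), against 94.7% of all positions with probes on both sides. High Coverage 1 had 47 of 70 (67.1%), against 70.3%, and High Coverage 2 had 47 of 70 (67.1%), against 74.8%. All 3 shares were near the background of the table. Scores were also averaged in bins of 50 bp at each position. On Stringent the median of these means over chromosome 11 was -1.06 between 100 and 50 bp before the position, 2.11 in the first 50 bp after it and 3.27 in the next 50 bp. For the same 3 bins, High Coverage 1 had medians of -0.723, -0.138 and -0.185. The High Coverage 2 medians were -0.984, -0.0177 and 0.0226.

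**Figure D4:**
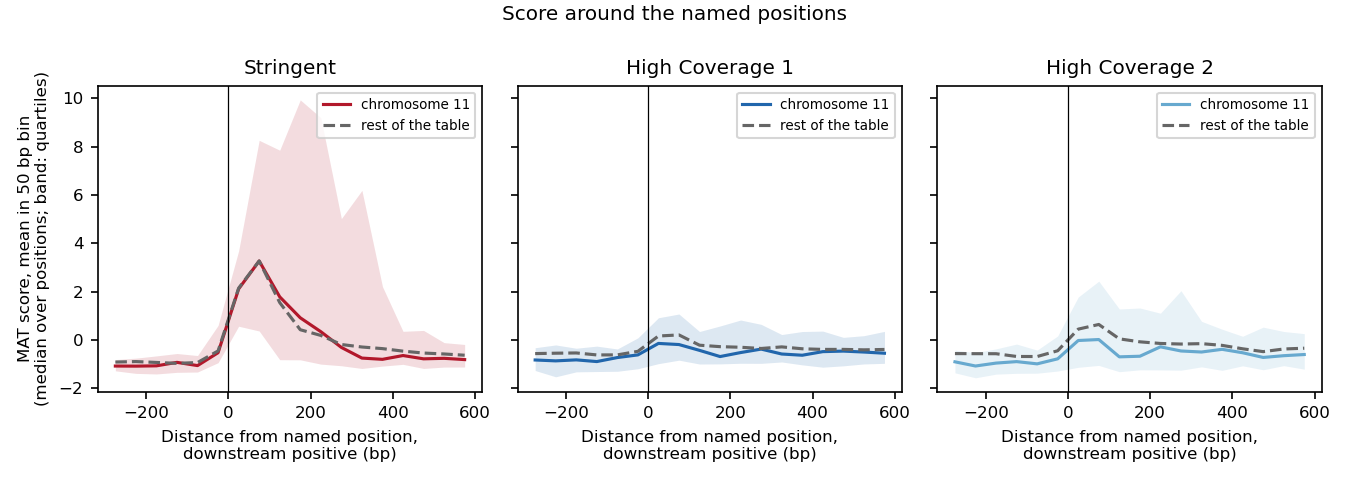
Mean MAT score in bins of 50 bp (y axis, natural log scale) by distance from the position along the gene's strand (x axis, bp), as the median over chromosome 11 positions (solid line, with the quartiles as a band) and over the rest of the table (dashed line), with 1 panel per array. The Stringent lines climb at the position to 3.27 for chromosome 11 and run together. The chromosome 11 lines of High Coverage 1 and 2 stay near 0 or below, and scores are read only within a panel.

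Among the 3 large clusters, the Stringent medians stayed high over a longer distance in the 73 to 75 Mb cluster. The median there was 5.15 at 50 to 100 bp, 6.93 at 100 to 150 bp and 3.87 at 200 to 250 bp. In the 48 to 53 Mb cluster the medians were 2.31, 1.10 and -0.543 in the same bins, and in the 58 to 60 Mb cluster they were 1.98, -0.811 and -0.745. The 3 positions of the 87 to 88 Mb cluster had medians of 11.9, 13.3 and 4.58 in these bins. Called regions at the positions had median lengths of 307 bp on Stringent, against 188 and 253 bp on High Coverage 1 and 2. The median of their first bases, relative to the position, was -40.5 bp on Stringent, against -55 and -44 bp on High Coverage 1 and 2. These lengths and first bases are of the highest-scoring region in each window. The position itself lay inside a called region at 43 of 46 called positions on Stringent and at 13 of 23 and 16 of 27 on High Coverage 1 and 2. At 5 positions on each High Coverage array and at Olfr43 on Stringent, only the region's edge entered the window and no probe there reached the threshold. On High Coverage 1 these were Olfr331, Olfr328, Olfr315, Olfr376 and Olfr462. On High Coverage 2 they were Olfr56, Olfr331, Olfr315, Olfr20 and Olfr390.

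Opposed neighbours were close together at 2 places in the 73 to 75 Mb cluster. Olfr389 on the minus strand and Olfr390 on the plus strand started 1923 bp apart and pointed away from each other, the smallest spacing among the 74 positions. Olfr390 scored 5.80 on Stringent, against 0.454 and -0.547 on High Coverage 1 and 2. The edge of a High Coverage 2 region entered its window, so Olfr390 was called there too. Olfr385 and Olfr386 had the same arrangement 5375 bp apart. Olfr385 scored 10.9 on Stringent, against 1.55 and 0.581 on High Coverage 1 and 2, and Olfr386 scored 11.9, 1.05 and 0.751 on the same arrays. All 4 of these positions were called on Stringent, where 62% of all scored positions were. The arrays were hybridised with PCR products, so signal between such neighbours is not assigned to a strand.

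Called regions also lay farther after the positions, at shares near those of the whole table. A called region lay beyond 100 bp and within 10 kb after the position, before any next position, at 66 of 74 positions on Stringent, against 89.2% of all scored positions. High Coverage 1 had one at 72, against 96.8%, and High Coverage 2 at 67, against 94.3%. The strongest such region began a median of 3166 bp after the position on Stringent, against 3551 and 3449 bp on High Coverage 1 and 2. Its region score had a median of 15.8 on Stringent, against 10.2 and 13.7 on High Coverage 1 and 2. Of the 60 members with such a region on all 3 arrays, 22 had strongest regions that began within 500 bp of each other. The region score is the authors' own and was compared only within an array.

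**Figure D5:**
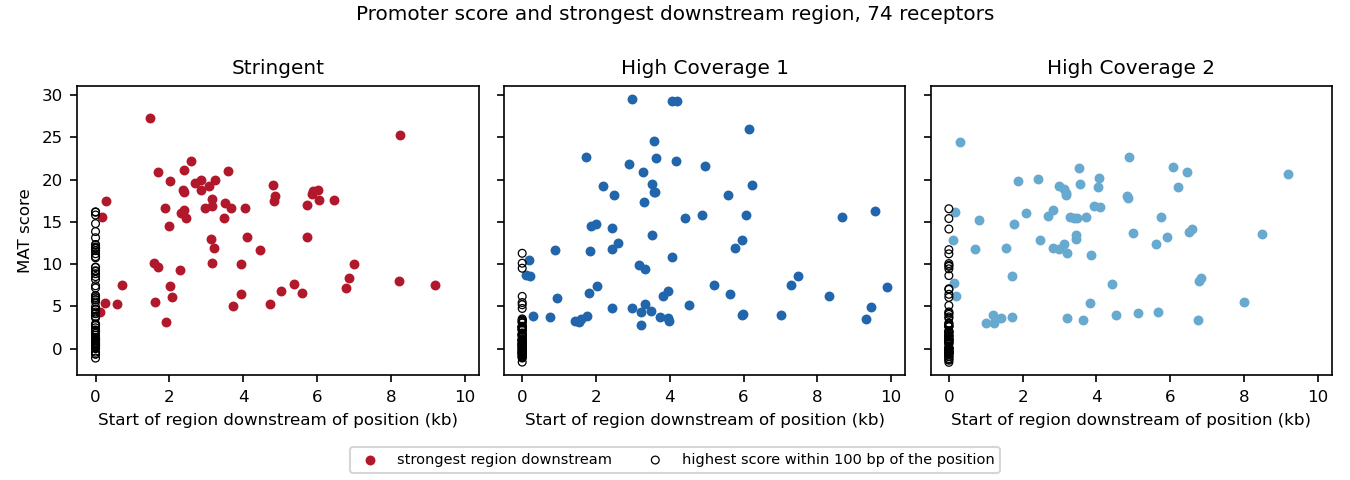
MAT score (y axis, natural log scale) of the strongest called region after each position against the distance of its start from the position (x axis, kb; filled points), with the highest score within 100 bp of each position at 0 kb (open points) and 1 panel per array. Most filled points lie some kilobases after the position.

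At Olfr20 the strongest region began 2972 bp after the position on all 3 arrays, with region scores of 16.7 on Stringent, against 29.5 and 19.3 on High Coverage 1 and 2. The RefSeq gene of Olfr20 spans 3841 bp. Both High Coverage arrays thus had a called region some kilobases after the position of Olfr20, and no probe within 100 bp of it reached their thresholds. At 205 bp after the position both arrays did score over their thresholds, at 5.10 and 9.35. Olfr376 showed nearly the same start on all arrays, at 3491 bp on Stringent, against 3530 and 3486 bp on High Coverage 1 and 2. Olfr1, with a RefSeq span of 4420 bp, had it at 2868 bp on Stringent, against 3596 and 3531 bp on High Coverage 1 and 2. Olfr378, with a span of 3441 bp, had it at 2390 bp on Stringent, against 2440 and 3117 bp on High Coverage 1 and 2. Olfr389 had less common ground, with 1487 bp on Stringent, against 8663 and 3449 bp on High Coverage 1 and 2 and a RefSeq span of 4203 bp. Olfr391 and Olfr392 had it at 3580 and 1690 bp on Stringent, at 3622 and 2011 bp on High Coverage 1, and at 298 and 155 bp on High Coverage 2. At these 2 genes the strongest High Coverage 2 region thus lay near the position.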

How the data were processed

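The MAT score of each probe was computed by the authors, per the file headers, from 1 array at a time, without a control array, with the bandwidth set to 50, gaps to 30 or less and probes to 5 or more. The authors called regions per array at score thresholds of 2.52 for the Stringent array and of 2.53 and 2.99 for High Coverage 1 and 2, per the file headers. Positions are on mm9 as the submitters' processing notes give it. Thresholds and scores are not on a common scale between arrays, hence the percentiles.

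Probes at exactly 0 on all 3 arrays (5.42% of 2313448) were read as unscored. A region counted with at least 1 bp within 100 bp of the position. Percentiles, exact binomial intervals (Clopper-Pearson, 95%) and counts were computed with Python 3.11.15, numpy 2.4.6, pandas 2.3.3 and scipy 1.17.1, and figures with matplotlib 3.10.9. The alternatives were other windows, overlaps, region lists, scores, scales and row sets, and the omission of 1 High Coverage array. The window scores, percentiles, region overlaps and means before and after the position were also tested on simulated data, and the other computations were not. The members and lists were chosen with earlier results of these data known. Members are named by rule: up to 5 per cluster with the highest lowest percentile, the 10 members at either end of the difference between Stringent and High Coverage, the 5 widest High Coverage gaps in each direction, the 3 highest scores per array, all called on all or on no array, the ends of clusters, close neighbours and those beside the limit. The other members named were chosen after their values were seen. RefSeq names and family synonyms (GRCm38.p6) matched 73 of the 74 members by symbol, all but Olfr386, and 70 had a family name. Protein sequences and mm9 sequence at the positions were not analysed here.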

Additional observations from a re-analysis of the deposited data

How the results depend on the processing

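Of 116 alternative values computed, 92 stayed within the interval or within 1.5 times of the value reported, and 24 moved. With a window of 250 bp on each side, the shares called were 44.6% of chromosome 11 on High Coverage 1 and, in the 73 to 75 Mb cluster, 92.6% on Stringent, against 55.6% and 63.0% on High Coverage 1 and 2, 17 positions were called on all 3 arrays, and the median percentile was 94.6 on High Coverage 1 and 92.5 on High Coverage 2. Where the region had to span the position, the shares were 17.6% and 21.6% of chromosome 11 on High Coverage 1 and 2 and 22.2% of the 73 to 75 Mb cluster on High Coverage 2, with 3 positions called on all 3 arrays. With the 3608 highest-scoring regions of each list, High Coverage 1 called 17.6% and 20 positions were called on none. Shares over all scored positions were not computed for these windows, overlaps and region lists, so the called shares and counts have no background beside them. In the 87 to 88 Mb cluster High Coverage 1 called 0 of 3 with a window of 50 bp, with a region that spans the position and, chosen after seeing the data, with a probe of the window at the threshold. With the mean score of the window, the median percentiles were 92.1 on Stringent, against 53.7 and 59.2 on High Coverage 1 and 2, and Stringent was higher at 27 positions and lower at 5. With that mean, 23.5% and 2.04% of all scored positions were higher and lower. On the median and MAD scale Stringent was higher at 31 and lower at 0, against 40.7% and 1.95% of all scored positions. Over 300 bp on each side, High Coverage 1 was higher after the position at 78.6%, and the share over the whole table was not computed there. The cause of these moves was not tested beyond the wider or narrower criterion itself. Without High Coverage 1, Stringent was higher at 17 positions and lower at 3, against 9.64% and 1.2% of all scored positions. Without High Coverage 2 the counts were 16 and 3, against 11.4% and 1.11%. No paired analysis was possible because Stringent has 1 array and the result comes from no test. The single Stringent array gives no spread for that scheme, and wording on it rests on 1 hybridisation.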

Other observations

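The 11 rows left out by the rule also carried signal. Both positions of Olfr406 were called on Stringent, with scores of 17.2 at the plus-strand position and 5.09 at the minus-strand one, as were both positions of Olfr59 (8.86 and 4.86) and of Olfr75-ps1 (16.1 and 8.05). Olfr325 was called on High Coverage 2 at 1 of its positions and nowhere else. Of the unannotated pseudogenes, the 2 near 51 Mb scored -0.23 and -0.301 on Stringent and 5.20 and 4.03 on High Coverage 2, while the one in the 58 to 60 Mb cluster scored 4.44 on Stringent and 0.603 on High Coverage 2.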
